A study of Mus musculus with 36 samples.

Results

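Dcpp-high cells are cells from samples of the mouse submandibular gland that spend much of their RNA on the 3 genes of the demilune cell and parotid protein family, Dcpp1, Dcpp2 and Dcpp3. They were taken from 26 Drop-seq libraries, in which single cells are caught in droplets with barcoded beads and their transcripts are counted by unique molecular identifiers (UMIs). A barcode was kept when 100 or more genes were detected in it and mitochondrial genes took under 15% of its UMIs, and it was called Dcpp-high when Dcpp1, Dcpp2 and Dcpp3 together made up at least 10% of its UMIs and the mucin gene Muc19 made up less than 2%. This rule found 1600 Dcpp-high cells among 23346 kept cells (6.85%) of 26987 barcodes. The Dcpp and Muc19 values chose the cells, so they are given as a description and none of them was tested between cell sets.

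Each Drop-seq library held cells of 1 submandibular gland of 1 mouse, sorted alive by FACS and fixed in methanol, and both sexes were present in every group. Control mice, labelled wildtype, carried K14-Cre and the Cre-inducible R26-EYFP reporter, and gave 6 glands at postnatal day 40 (P40) and 6 at P90. Double-mutant mice carried the same K14-Cre and reporter together with the β-catenin flox gain-of-function allele and the Bmpr1a flox loss-of-function allele on both chromosomes, and gave 7 glands at P40 and 7 at P90, all on a C57BL/6 background. K14-Cre is driven by a keratin promoter of basal cells, so that in luminal cells the alleles are recombined only where these descend from K14-expressing cells or express it themselves. In addition, RNA and surface proteins were measured together (CITE-seq) in 4 glands of about P70, 2 of control and 2 of double-mutant mice. Bulk RNA was sequenced from a single control gland of P70 and a single double-mutant gland of P100. The CITE-seq control glands were labelled male and female, and the CITE-seq double-mutant glands and both bulk glands female.

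Dcpp proteins are small secreted proteins of the jacalin-like fold, named after the serous caps, or demilunes, that sit on the mucous acini of the sublingual gland, and after the parotid gland. The sublingual gland lies against the submandibular gland and shares a capsule with it, and its mucous cells make the gel-forming mucin Muc19. Serous secretory cells load saliva with antimicrobial and taste- or enamel-related proteins, for which they need a large endoplasmic reticulum. These facts are background and were not measured here.

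Total UMIs per gland ranged from 777537 to 7013325, and kept cells per gland from 606 to 1209. All control glands at P40 were processed in batches 12 to 14 and all control glands at P90 in batches 7 to 9, and in controls the effect of stage therefore cannot be told apart from that of batch. Double-mutant batches 11, 12 and 13 held glands of both stages. Between libraries, 19 barcode sequences were shared, 14 of them among kept cells and 0 among Dcpp-high cells. The library labelled double-mutant P40 replicate 1, male, held 591 Xist and 1 Y-linked UMIs, and the library labelled double-mutant P90 replicate 5, female, held 0 Xist and 194 Y-linked UMIs. Both came from batch 11, and whether their stage labels hold was not tested. They were kept under their labels, and results were also computed without them.

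The 3 Dcpp genes lie in 1 cluster on chromosome 17, all on the plus strand. In GRCm38, the build of the files (mm10), and the GENCODE vM21 annotation, Dcpp1 spans chr17:23880876-23882853, Dcpp2 chr17:23880880-23900787 and Dcpp3 chr17:23917458-23919441, so that the annotated span of Dcpp2 begins inside Dcpp1. The following stretch of 90 bases of their last coding exon, read from the reference GRCm38, is shown because the 3 genes differ in it at 16 positions, which are in capitals. It lies at chr17:23882606-23882695 in Dcpp1 (exon 4), chr17:23900541-23900630 in Dcpp2 (exon 3) and chr17:23919194-23919283 in Dcpp3 (exon 4), plus strand throughout.
Dcpp1: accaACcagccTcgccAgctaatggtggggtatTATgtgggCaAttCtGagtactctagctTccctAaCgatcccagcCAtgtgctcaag
Dcpp2: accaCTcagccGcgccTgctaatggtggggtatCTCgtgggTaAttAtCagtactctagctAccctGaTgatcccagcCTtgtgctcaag
Dcpp3: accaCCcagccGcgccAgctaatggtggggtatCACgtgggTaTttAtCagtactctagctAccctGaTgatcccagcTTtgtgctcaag
Over the whole coding sequence the genes were 93.22 to 95.35% identical in pairs, and the last 168 bases of their transcripts were the same in all 3. Of the 64-base windows along each transcript, 59.21% in Dcpp1, 62.78% in Dcpp2 and 67.64% in Dcpp3 occurred in that gene alone. Drop-seq reads start near the 3′ end, where the transcripts are the same, so that single Dcpp genes are less certain than their sum.

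The 250 bases upstream of the 3 start sites are shown because the genes were found in the same cells. They come from RefSeq's GRCm38.p6, plus strand, and capitals mark TATAA, the core of a TATA box.
Dcpp1, chr17:23880626-23880875: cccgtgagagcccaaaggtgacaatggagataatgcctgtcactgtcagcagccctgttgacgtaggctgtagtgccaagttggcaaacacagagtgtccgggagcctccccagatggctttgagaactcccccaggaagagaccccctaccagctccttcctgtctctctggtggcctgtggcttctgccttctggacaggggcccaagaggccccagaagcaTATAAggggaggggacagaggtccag
Dcpp2, chr17:23898472-23898721: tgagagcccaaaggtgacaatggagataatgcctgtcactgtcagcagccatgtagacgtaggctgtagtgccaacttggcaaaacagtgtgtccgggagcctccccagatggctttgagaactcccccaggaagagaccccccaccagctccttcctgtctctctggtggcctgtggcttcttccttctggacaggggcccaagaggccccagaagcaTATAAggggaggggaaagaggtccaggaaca
Dcpp3, chr17:23917208-23917457: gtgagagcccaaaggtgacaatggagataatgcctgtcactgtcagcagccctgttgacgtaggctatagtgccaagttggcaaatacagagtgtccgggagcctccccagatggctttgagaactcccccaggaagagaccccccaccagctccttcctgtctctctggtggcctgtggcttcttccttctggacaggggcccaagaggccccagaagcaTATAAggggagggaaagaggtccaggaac
These promoters were 93.3 to 96.4% identical in pairs. TATAA was searched on both strands, and its first base lay 26, 31 and 29 bases upstream of the start in Dcpp1, Dcpp2 and Dcpp3. It was also found 31 bases upstream in Wfdc18, 27 in Mup4 and 40 in Bpifa2, and was not in the window of Pglyrp1. Of 32851 promoters of the same length, 22.78% held TATAA on either strand and 3.516% held it on the strand of the gene between 40 and 16 bases upstream. A match is a description of the letters, not of binding.

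Within Dcpp-high cells the Dcpp share was high and continuous. Its median was 71.4% of a cell's UMIs, with a 5th percentile of 15.5% and a 95th percentile of 83.7%, and 1349 cells (84.3%) had 50% or more. The highest cell reached 91.3%. Near the threshold, 17 cells had 10 to 11% and 26 cells 9 to 10%, the lowest Dcpp-high cell had 10.2% and the highest cell below the limit 9.99%. A further 4 cells above 10% were left out for their Muc19. The cells thus formed a main group above 50% and a thin tail that reached the threshold without a gap, as the distribution of the Dcpp share shows. All 3 Dcpp genes had a UMI in 1597 of the 1600 cells.

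**Figure D1:**
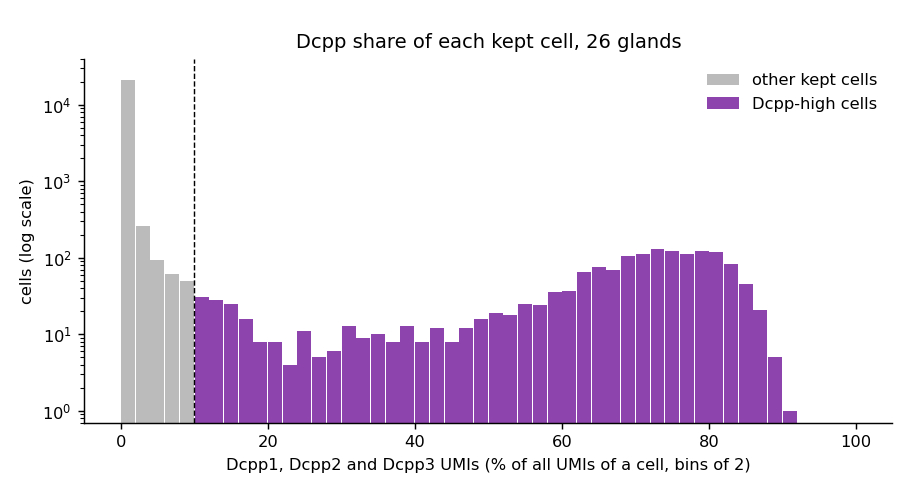
Number of kept cells (log scale) by the share of Dcpp1, Dcpp2 and Dcpp3 in all UMIs of the cell, in bins of 2 percentage points, over all 26 glands; Dcpp-high cells are purple, all others gray, and the dashed line is the 10% threshold. Most Dcpp-high cells lie between 60 and 85%, and a low tail of fewer than 50 cells per bin runs down to the threshold.

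Dcpp-high cells were deeper than the other cells of the same glands but not richer in genes. Their median was 3936 UMIs and 454 genes, against 1356 UMIs and 483 genes in the other cells of the 14 glands with at least 10 Dcpp-high cells. Without Dcpp and Muc19 UMIs their median was 1108. For this reason every expression level below is given in CPM, UMIs of the gene per 1000000 UMIs outside Dcpp1, Dcpp2, Dcpp3 and Muc19.

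Glands either held Dcpp-high cells in number or hardly any. The 14 glands with at least 10 held 1589 of them, 18 to 328 each, at shares of 2.50 to 28.6% of the kept cells. The other 12 glands held 11 in all. In 6 of these the count was 0, which allows shares of up to 0.281 to 0.495%, and the other 6 had 1 to 3 cells and at most 0.441%. Dcpp UMIs followed the same line, as they made up 1.66 to 22.3% of all UMIs in the 14 glands and at most 0.521% in the 12. In the 14 glands 94.0 to 99.04% of all Dcpp UMIs were in Dcpp-high cells. Counting limits cover counting error only.

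Cells with high Muc19 were found in the same glands. The 14 glands held 377 Muc19-high cells, 2 to 126 each, whereas the 12 others held 2, both in control P90 replicate 1. Muc19-high cells made up 11.4% of the cells of double-mutant P90 replicate 6 and 10.2% of double-mutant P40 replicate 7, and at most 3.31% elsewhere. The paper showed Muc19-positive cells by staining in the sublingual gland. It also reports more Dcpp1-positive cells at P40 than at P90, from a binomial mixed model on its own clusters of control glands. For this it stained Wfdc18 in submandibular sections of both stages. It further takes Pglyrp1 as a marker of excretory ducts and places Wfdc18 in excretory and intercalated ducts of controls. Whether some samples held tissue of that gland, and whether these glands differed in the tissue that was dissected, was not tested.

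In control glands at P40, Dcpp-high cells made up 0, 12.9, 28.6, 20.7, 0 and 22.9% of the cells of replicates 1 to 6. In control glands at P90 the share was 0.0921, 0.202, 9.66, 0.144, 0.399 and 0.122%. Thus 4 of 6 glands at P40 and 1 of 6 at P90, replicate 3, held at least 10 of these cells. In double-mutant glands the share was 0, 5.49, 8.20, 11.2, 0, 12.4 and 12.9% in replicates 1 to 7 at P40, and 0, 0, 2.50, 3.50, 2.65, 10.8 and 0.441% at P90. Here 5 of 7 glands at P40 and 4 of 7 at P90 held at least 10. The ranges of the 4 groups overlapped, since each had a gland at or near 0.

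**Figure D2:**
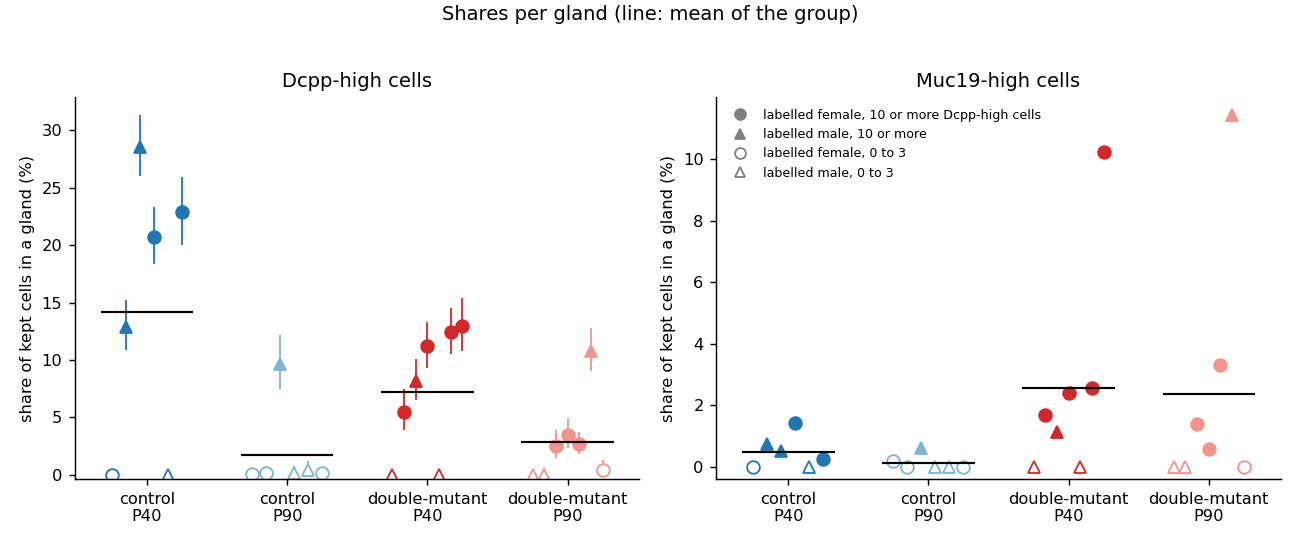
Share of Dcpp-high cells (left) and Muc19-high cells (right) among the kept cells of each gland (percent) by group; each point is 1 gland (circle labelled female, triangle male, filled with 10 or more Dcpp-high cells), vertical lines at left are exact 95% binomial intervals, and horizontal lines are group means. At left every group has glands at or near 0 and glands well above, with the highest share, 28.6%, in control P40 replicate 3.

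Averaged over glands, 14.2% ± 12.1 (SD, n = 6) of the cells were Dcpp-high in controls at P40, against 1.77% ± 3.87 (SD, n = 6) at P90. This difference of −12.4 percentage points did not pass a two-sided exact permutation test over all 924 arrangements of the glands (p = 0.0606, adjusted over 6 comparisons by Benjamini-Hochberg p = 0.364). In double mutants the P40 glands averaged 7.17% ± 5.53 (SD, n = 7) and the P90 glands 2.84% ± 3.78 (SD, n = 7) (exact permutation test, p = 0.123, adjusted p = 0.367). Between genotypes, the difference of double-mutant from control glands was −7.02 points at P40 (exact permutation p = 0.199, adjusted p = 0.367) and 1.07 points at P90 (exact permutation p = 0.533, adjusted p = 0.640). The stage difference was 8.09 points smaller in size in double-mutant glands, and this did not pass an exact permutation of genotype within stage either (p = 0.155). The smallest p that these designs allow is 0.00216 for 6 against 6 and 0.000583 for 7 against 7 glands. The SD within a group reached 12.1 points, close to the size of the largest difference between groups.

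Within batches the order of the genotypes at P40 was not the same. In batch 12 the mean share was 6.46% in 2 control glands and 11.2% in 1 double-mutant gland, in batch 13 it was 28.6% in 1 and 6.198% in 2, and in batch 14 it was 14.6% in 3 and 12.9% in 1. Double-mutant glands of both stages shared 3 batches, with 4.57% (3 glands) at P40 and 2.65% (1 gland) at P90 in batch 11, 11.2 and 10.8% in batch 12, and 6.198 and 0.441% in batch 13. At P90 control and double-mutant glands had 4.90 and 1.25% in batch 8 and 0.261 and 3.50% in batch 9. Batches hold too few glands for a test of their own.

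By labelled sex, 7 of 8 female and 2 of 6 male double-mutant glands held at least 10 Dcpp-high cells, and 2 of 6 female and 3 of 6 male control glands. Of the libraries whose sex genes go against the label, double-mutant P40 replicate 1, labelled male, held 0 and double-mutant P90 replicate 5, labelled female, 32 of these cells. The mean share was 6.39% ± 5.01 (SD, n = 8) in female and 3.17% ± 4.97 (SD, n = 6) in male double-mutant glands (two-sided exact permutation test, p = 0.245, adjusted p = 0.367). In control glands it was 7.34% ± 11.2 in females and 8.62% ± 11.2 in males (SD, n = 6 each, exact permutation p = 0.870, adjusted p = 0.870). No difference by sex passed the test.

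In the 1600 cells together, Dcpp1 held 31.6%, Dcpp2 38.8% and Dcpp3 29.6% of the Dcpp UMIs. Across the 14 glands Dcpp2 varied little, from 35.8 to 42.6%, while Dcpp1 ranged from 15.5 to 48.3% and Dcpp3 from 9.11 to 46.2%. The share of Dcpp1 in the sum of Dcpp1 and Dcpp3 fell near 3 levels. It was 25.1% in double-mutant P90 replicate 6, 25.5% in double-mutant P90 replicate 4 and 28.3% in control P40 replicate 4. In 7 glands it lay between 50.3 and 54.0%. It was 71.2% in double-mutant P90 replicate 3, 76.2% in double-mutant P40 replicate 7, 78.0% in control P90 replicate 3 and 84.1% in double-mutant P40 replicate 3. These levels were found by eye, so they are a description of 14 glands.

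Genotypes, stages and batches were mixed within these levels. Both genotypes and both stages occurred at the low and at the high level, and batch 14 held 1 gland of each level. The Dcpp UMIs counted outside the Dcpp-high cells gave 20.7 to 27.0% in the 3 low glands, 47.4 to 55.7% in the 7 middle glands and 83.9 to 91.4% in the 4 high glands, without overlap. In these 14 glands 21.5 to 100% of the non-epithelial cells held a Dcpp UMI. The outside UMIs may thus be free RNA of the chosen cells and are no separate measurement. The part of free RNA was not tested. In the 3 low glands the cells also differed most among themselves, with 5th percentiles of 0.989 to 7.61% against 39.8 to 48.7% in the middle glands. How reads were divided among near-identical genes was not tested, and the counts do not hold the sequence of the reads.

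**Figure D3:**
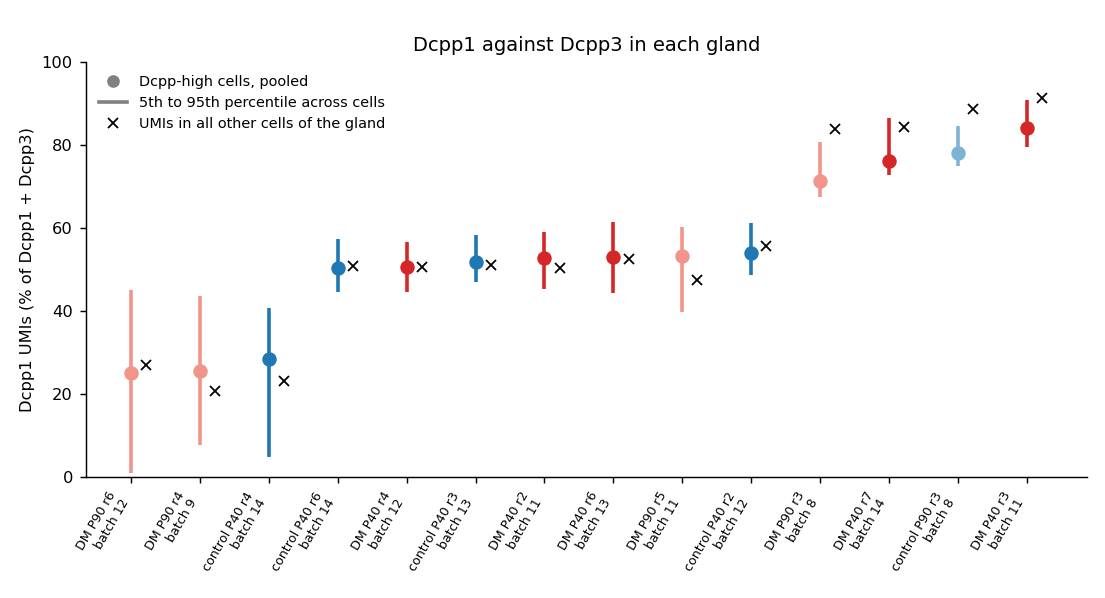
Dcpp1 as a percent of the sum of Dcpp1 and Dcpp3 UMIs in the 14 glands with at least 10 Dcpp-high cells, sorted and labelled with their batch; points are Dcpp-high cells pooled, lines the 5th to 95th percentile across those cells, and crosses the UMIs of all other cells of the gland. The points lie at 25.1 to 28.3%, 50.3 to 54.0% and 71.2 to 84.1%, and the crosses fall near the same 3 levels.

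Genes that the rule did not use were compared with the rest of the gland. For each of the 14 glands the level in Dcpp-high cells was divided by that in all other kept cells of the gland, after adding 1 UMI to each sum, and the median log2 ratio over glands was taken. A gene counted as measured when it had a mean of at least 50 CPM in Dcpp-high cells and a UMI there in at least 50% of the glands. Genes low in Dcpp-high cells were thus left out, which raises the ratios of those kept. Over the 2140 measured genes the median log2 ratio was 0.93, so ratios are to be read against that value. Of the 2140, 965 exceeded 1 and 37 exceeded 3. A median above 0 was found for 2002 (93.6%), which is the background for the counts of list members given as higher. Those counts leave out list members that were low in Dcpp-high cells. Because the sets differ in depth, the added UMI weighs more in the smaller set and raises the ratio of genes near 0. An offset scaled to the depth of each set was an alternative chosen after seeing the data. With it the median was 0.76, 1943 genes (90.8%) lay above 0, 731 exceeded 1 and 35 exceeded 3. Of the 25 highest genes, 24 were the same. No test was run, because the cells were chosen by genes measured in the same cells.

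Bpifa2, a BPI-fold protein of saliva also known as parotid secretory protein, had a median of 91047 CPM in Dcpp-high cells (range 10196 to 210296) against 421 in the other cells, a log2 ratio of 7.22. In control glands at P40 its CPM was 37502, 111593, 84298 and 210296 in replicates 2, 3, 4 and 6, and it was 112409 in control P90 replicate 3. In double-mutant glands at P40 it was 109609, 129568, 90805, 96955 and 91289 in replicates 2, 3, 4, 6 and 7, and at P90 it was 41885, 87357, 10196 and 11728 in replicates 3 to 6. The 2 lowest values were thus both from double-mutant glands at P90, replicates 5 and 6. The Dcpp-high cells of these glands also had the lowest median Dcpp shares of the 14 glands, 31.8 and 50.5%. Bpifa2 was lower in cells with a low Dcpp share, as given below. The part of this makeup in the values per gland was not tested. Its lowest log2 ratio to the other cells in any gland was 5.59.

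Wfdc18, a secreted protein with a WAP domain, had the highest level of the 25 genes, with a median of 146923 CPM against 2558 in the other cells (log2 ratio 5.80). Its CPM was 55351, 96308, 76716 and 76547 in control P40 replicates 2, 3, 4 and 6 and 75784 in control P90 replicate 3. It was 208457, 132731, 152456, 241414 and 184074 in double-mutant P40 replicates 2, 3, 4, 6 and 7, and 249191, 141390, 200512 and 257088 in double-mutant P90 replicates 3 to 6. All 9 double-mutant glands lay above all 5 control glands. In the fit across all genes the log2 fold change between genotypes was 1.38 (SE 0.48) and did not pass (edgeR adjusted p = 0.326). The other cells of the same glands had 325 to 1018 CPM in controls and 560 to 13288 CPM in double mutants, and the difference between the cell sets in the effect of genotype was −0.26 (adjusted p = 0.945).

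Pglyrp1, which binds bacterial peptidoglycan, was measured at 5099 to 17396 CPM in Dcpp-high cells, median 9084, and at a median of 50.3 CPM in the other cells (log2 ratio 7.78). Its range over glands was narrow next to that of Bpifa2. The major urinary protein genes Mup4 and Mup6, lipocalins that bind small molecules, had the highest ratios of all, 8.70 and 8.23. Mup4 had a median of 4319 CPM (534 to 8584) against 7.46, and Mup6 1044 CPM (160 to 1492) against 2.26. Reads of Mup genes may be divided among many near-identical copies, so the family is more certain than its members. Cst10, a cystatin-like secreted protein, was lower in level, with 158 CPM, but 0 in the other cells of most glands (log2 ratio 7.68).

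Other leading genes had varied roles. Kcne1, an auxiliary subunit of potassium channels, had 868 CPM (267 to 1176) against 4.67, a log2 ratio of 7.10. Ntrk2, the receptor of brain-derived neurotrophic factor, had 106 CPM (0 to 137) and a ratio of 5.51, and Lmod2, an actin filament nucleator best known from muscle, 79.6 CPM and 5.99. Sox2, a transcription factor of progenitor cells and of taste and glandular epithelia, had 68.0 CPM (0 to 177) and a ratio of 4.57. Trpv6, an epithelial calcium channel, had 62.0 CPM and 4.53, and Sod3, the extracellular superoxide dismutase, 88.0 CPM and 5.19.

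Among the 25 were also 3 enzymes that build sugar chains. B3galt5, a galactosyltransferase, had 199 CPM against 6.01 (log2 ratio 5.06), B3gnt6, which makes the core 3 structure of mucin-type chains, 119 against 4.63 (4.38) and Fut9, a fucosyltransferase that makes the Lewis x epitope, 131 against 8.63 (4.21). Of the 18 genes in the list for mucin glycosylation, 4 were measured and all 4 were over 2-fold higher (median 2.40, or 2.17 with the scaled offset). Of all 2140 measured genes, 965 were over 2-fold higher (731 with the scaled offset). The remaining genes of the 25 highest were A330048O09Rik (5.30), Olfml3 (4.51), Ceacam10 (4.50), Gh (4.46), Frmpd1os (4.45), Adgrg2 (4.34), the agouti gene a (4.18), Plin2 (4.06), Gm15821 (3.97) and Rcan1 (3.95). For Gm15821 the median level was 0.816 CPM and the highest 1416, and it had no UMI in 7 glands. With the scaled offset its ratio was 0.83 and its rank 969, so that it owed its place to the added UMI, and Pigr took it. Without any offset, 13 of the 25 genes had a higher CPM in Dcpp-high cells in all 14 glands, Gm15821 in 7, and the other 11 in 12 or 13 glands.

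**Figure D4:**
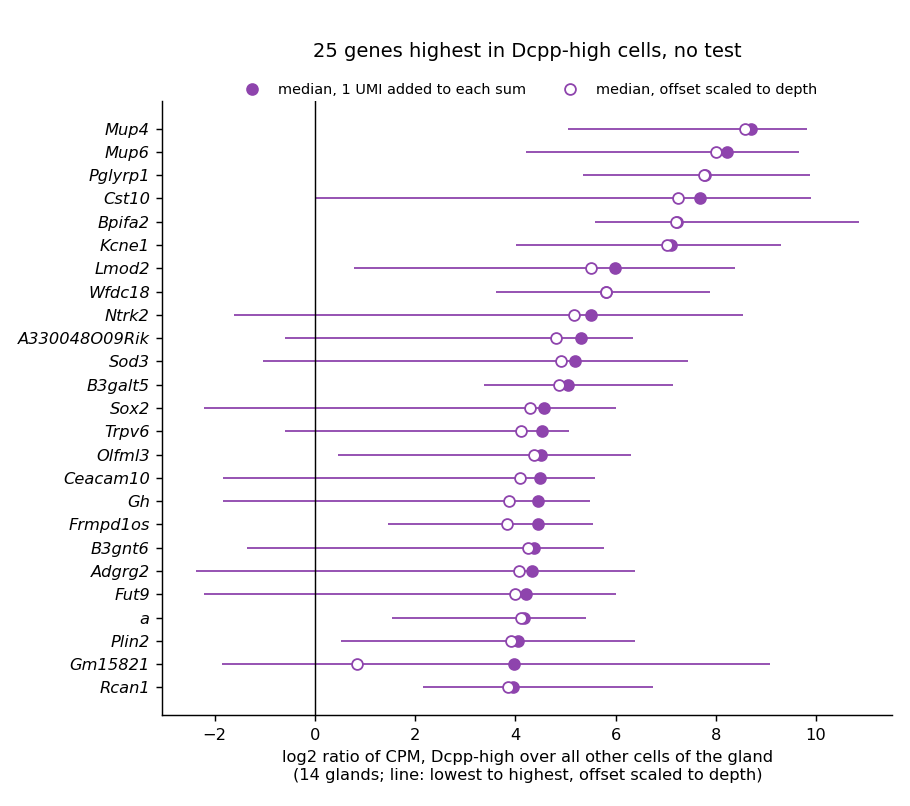
Log2 ratio of CPM in Dcpp-high cells to CPM in all other kept cells of the gland for the 25 genes with the largest median; filled points are medians of 14 glands with 1 UMI added to each sum, open points medians with the offset scaled to depth, and lines run from the lowest to the highest gland with that offset. Mup4, Mup6, Pglyrp1, Cst10, Bpifa2 and Kcne1 have medians above 7 under both, Gm15821 falls to 0.83, and the lines of 11 genes reach below 0.

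Beyond the leading genes, the lists of genes for cell functions and cell types were read. Of 30 genes for folding and export of secreted proteins in the endoplasmic reticulum, 27 were measured and all 27 were higher in Dcpp-high cells, 24 of them over 2-fold, with a median log2 ratio of 1.46 against 0.93 over all genes (1.44 against 0.76 with the scaled offset). Of all 2140 measured genes, 2002 were higher and 965 over 2-fold higher (1943 and 731 with the scaled offset). Xbp1, the transcription factor that enlarges the endoplasmic reticulum, had 1213 against 185 CPM (2.71), the co-chaperone Dnajc3 1036 against 258 (2.14), and the chaperones Hspa5 and Hsp90b1 925 against 524 (1.26) and 990 against 513 (0.90). Of these, Hsp90b1 was thus close to the median of all genes.

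Of the 13 measured transcription factors of glandular epithelium 12 were higher, close to the 93.6% of all measured genes, with a median of 1.35 (1.196 with the scaled offset) against 0.93 (0.76). Klf5 had 197 against 21.6 CPM (3.25), Etv1 468 against 60.3 (2.83), Creb3l1 192 against 42.1 (2.23) and Ehf 914 against 239 (1.96). Sox9, a factor of ducts and acini, was at 355 against 205 CPM, with a ratio of 1.02 near that of all genes. Of 20 salivary secretory genes, 9 were measured, of which 2 were higher and 4 over 2-fold lower (median −0.44 under both offsets). The antimicrobial list differed between the offsets, since 4 of its 7 measured genes were higher with 1 UMI added (median 0.49) and 2 with the scaled offset (median −0.08). Higher under both was Pigr, the receptor that carries IgA and IgM across the cell, at 3230 against 324 CPM (3.36), whereas Pip, a secreted glycoprotein of saliva, had 22249 against 33424 CPM (−0.08) and Lpo, lactoperoxidase, 118 against 138 CPM (−0.20).

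Of the markers of ducts, acini and other lineages, those of the Klk1 duct list were lower. All 7 measured genes of the Klk1 duct list were over 2-fold lower (median −1.62, or −2.40 with the scaled offset), with Klk1, tissue kallikrein, at 1360 against 8920 CPM (−2.29). In the list of serous acinar genes, 4 of 6 measured members were higher and 2 lower (median 0.52, or 0.23 with the scaled offset). Cst10 and Aqp5, a water channel, were over 2-fold higher (7.68 and 1.22), while Prol1 and Car6 had 3946 against 40928 CPM (−2.82) and 7868 against 48461 (−2.23), and were lower in 14 of 14 glands. Basal keratins were low in both cell sets, with medians of 8.25 against 33.4 CPM for Krt14 and 0 against 14.7 for Krt5. In single glands Krt14 reached 106 and Krt17 160 CPM in Dcpp-high cells. All 3 measured immune markers were over 2-fold lower (median −2.25, or −2.54 with the scaled offset). Of the 15 immune markers, 14 had a UMI in Dcpp-high cells and Cd3g had 0. Of the 10 endothelial markers, 9 had a UMI there and Cldn5 had 0. In the other cells Cd3g and Cldn5 had medians of only 1.98 and 1.06 CPM, so their 0 lies near the floor. Of 12 simple epithelial genes 10 were measured, of which 9 were higher (median 1.01, or 0.98 with the scaled offset), near the share of all measured genes. Epcam, Krt8 and Krt18 had 1068, 559 and 1159 CPM against 347, 242 and 606, and the ratio of Krt18 (0.73) lay below the median of all genes. Cldn4 was lower, at 31.8 against 188 CPM (−1.96). Krt7 and Krt19, not measured, had 17.8 against 105 and 0 against 8.12 CPM. Apart from Cldn4, the measured members did not go against a luminal epithelial label.

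Free RNA can give UMIs in cells that do not express a gene, so detection was compared with that in non-epithelial cells of the same glands, which should lack these genes and were chosen for having no Epcam, Krt8 or Krt18 UMI, after every cell was thinned to 200 UMIs outside the rule genes. Of 1580 Dcpp-high cells, 85.0% had a Bpifa2 UMI, 73.2% Pglyrp1, 97.8% Wfdc18, 30.1% Mup4 and 47.3% Pigr. Of 1922 non-epithelial cells, 3.17, 0.624, 15.6, 0.208 and 0.937% did. These genes were thus well above background. Spt1, an abundant salivary protein gene, was in 96.96% of Dcpp-high and 88.9% of non-epithelial cells, and Prol1 in 40.3 and 22.4%, so these genes were also met in cells that should lack them. Without thinning the shares were 92.9, 93.9, 99.6, 52.8 and 83.8% for the first 5 genes in Dcpp-high cells, and 12.7, 2.23, 38.2, 0.810 and 2.89% in non-epithelial cells, at median depths of 1109 and 669 UMIs.

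The cells near the threshold differed from the main group. In 108 cells with a Dcpp share of 10 to 20%, Bpifa2 had 7162 CPM, Prol1 36586 and Klk1 9325, and 28 of the cells held at least 3 UMIs of immune, endothelial or fibroblast markers. In 953 cells with 60 to 80%, Bpifa2 had 126649 CPM, Prol1 2335 and Klk1 1763, and 46 held such UMIs. In the 87 cells with 20 to 40%, Bpifa2 lay between these values at 31351 CPM, while Prol1, at 38263 CPM, was as high as near the threshold. From 40% upward Bpifa2 stayed between 95305 and 126649 CPM. Over all Dcpp-high cells, 1240 had no non-epithelial UMI.

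Of the 10 genes highest against Prol1-high acinar cells, Bpifa2 (log2 ratio 8.33), BC048546 (7.54), Mup4 (6.79), Pglyrp1 (6.65) and Wfdc18 (6.02) led with 1 UMI added (9.71, 8.60, 7.71, 8.60 and 6.16 with the scaled offset), followed by Kcne1, Mup6, Rcan1, Ier3 and a. This comparison used 13 glands. Against the Muc19-high cells of the same 14 glands the highest were Bpifa2 (8.22), Wfdc18 (5.86), Mup4 (5.48), Pglyrp1 (5.14), Mup6 (4.36), Pip (4.27), Kcne1 (3.96), Phlda1 (3.95), Scgb2b27 (3.91) and Scgb2b24 (3.35). Among epithelial and secretory genes, the log2 ratio to Muc19-high cells was 0.29 for Epcam, 0.47 for Xbp1 and −0.18 for Pigr (0.36, 0.55 and −0.16 with the scaled offset). It was −0.13 for Krt8, −0.60 for Krt18 and −0.71 for Sox9 (0.03, −0.57 and −0.51). Of the 2140 measured genes, Xbp1, Epcam and Pigr ranked 90, 122 and 276, so they lay above most genes in this comparison. Aqp5, a water channel of acini, and Smgc, a mucin-like secreted protein, were lower in Dcpp-high cells, at −1.42 and −3.89. Smgc and Muc19 share a locus, and Muc19 chose both cell sets, so the ratio of Smgc may in part be set by the rule.

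EYFP, the reporter that marks cells with Cre activity and their descendants, was captured at low levels. It was chosen after its values were seen. It had 156, 188, 236 and 92.1 CPM in control P40 replicates 2, 3, 4 and 6 and 95.4 in control P90 replicate 3. It had 167, 173, 9.66, 115 and 0 CPM in double-mutant P40 replicates 2, 3, 4, 6 and 7 and 0 in all 4 double-mutant glands at P90. Those glands gave at most 141710 UMIs outside the rule genes. Non-epithelial cells of the same glands had 0 to 323 CPM, so EYFP was also met in cells that are not epithelial. All other cells of the glands had 44.9 to 81.1 CPM in controls and 0 to 204 CPM in double mutants, with 0 to 29.9 CPM at P90. In Dcpp-high cells its log2 fold change from P40 to P90 was −2.56 (edgeR adjusted p = 0.0395), and that between genotypes −1.02 (adjusted p = 0.602).

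Gene expression within Dcpp-high cells was then compared between conditions. UMIs of each gland's Dcpp-high cells were summed without Dcpp1, Dcpp2, Dcpp3 and Muc19, giving 18732 to 612450 UMIs in 14 glands, and stage, genotype and labelled sex were fitted together for 4632 genes. At P90 only 1 control gland, replicate 3, contributed. The test was edgeR's quasi-likelihood test, and its p-values, which measure the spread between glands, were adjusted over all genes after Benjamini and Hochberg. Values in parentheses after a gene are log2 fold changes with their standard errors (SE).

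Between P40 and P90, 74 genes changed in Dcpp-high cells (1.6% of those tested), 31 higher (0.669%) and 43 lower (0.928%) at P90. This split was not the same in other fits. DESeq2, which differs in test, filter and size factors and gave these genes a median log2 fold change of 0.17 in place of −0.15, called 145 higher and 30 lower, library sizes that included the rule genes gave 34 and 73, and batch as a factor gave 35 and 79. Without double-mutant P90 replicate 5, whose sex genes go against its label, 30 were higher and 11 lower. Most of the lower calls were thus lost without that library. Genes of the secretory route were among those that fell, and several also fell in the other cells of the glands, as given below. Sdf2l1, a component of the chaperone complex of the endoplasmic reticulum, had 81.9 to 272 CPM in the 9 glands at P40. At P90 it had 40.9 CPM in control replicate 3 and 0, 0, 53.4 and 42.3 CPM in double-mutant replicates 3 to 6. The groups did not overlap. The sums of double-mutant replicates 3 to 5 at P90 held only 18861, 24726 and 18732 UMIs, so their values lie near the floor. The log2 fold change of Sdf2l1 was −2.33 (SE 0.50, edgeR adjusted p = 0.00603). Over 25 alternative fits its log2 fold change ran from −2.71 to −2.02, and in 2 of them, with batch as a factor and without control P90 replicate 3, it did not pass (highest adjusted p = 0.0867, edgeR).

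Nucb2, a calcium-binding protein of the Golgi and precursor of a secreted peptide, had 640 to 1091 CPM in glands at P40. At P90 it had 777 CPM in the control gland and 318, 283, 53.4 and 381 in the double-mutant glands, so the control gland lay within the P40 range. Its log2 fold change was −1.60 (adjusted p = 0.00991, edgeR). Lpo, lactoperoxidase, had 91.4 to 209 CPM at P40 and 0 to 80.9 at P90 (−2.17, adjusted p = 0.00396, edgeR), without overlap. In the shallow sums at P90 such levels of Lpo also lie near the floor. Spcs2, a subunit of the signal peptidase, fell by 1.48 on the log2 scale and Cst10 also fell (edgeR adjusted p = 0.00991). The other genes among the 10 lowest in p were Gde1, Lrrc26, Edf1, Slc46a1 and Lamtor1, with log2 fold changes of −1.64, −1.62, −1.59, −6.15 and −3.91. Lamtor1, a part of the lysosomal Ragulator complex, had 0 UMIs in 4 of 5 glands at P90, so the fitted fold is no bound.

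Of the 30 genes of protein folding and export, 0 rose and 3 fell at P90 (Sdf2l1, Spcs2 and Ssr4), against 0.928% of all genes that fell, and their median log2 fold change was −0.70 against −0.15 over all genes. With DESeq2, 0 rose and 4 fell, and the medians were −0.34 and 0.17. Without double-mutant P90 replicate 5, 1 fell, without double-mutant P90 replicate 6, 6 fell, and in thinned sums 0 fell (median −0.24). The sums at P90 were shallower, 18732 to 141710 UMIs against 47770 to 612450 at P40, and when every sum was thinned to the smallest, 427 genes could be tested and 5 were called, all of them higher at P90. Bpifa2 had a log2 fold change of −1.42 (SE 0.49, adjusted p = 0.133) and Pglyrp1 of −0.49 (adjusted p = 0.570), both from edgeR, and neither passed. For Bpifa2 the call depended on the fit, and the Dcpp share of the summed cells differed between glands. With batch as a factor, chosen after seeing the data, it was −3.46 (adjusted p = 0.000216).

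Of the genes that rose, Snord13 and Cebpb had the lowest p-values. Cebpb, a transcription factor of acute phase and stress responses, had 0 to 22.8 CPM in glands at P40. At P90 it had 395 CPM in control replicate 3 and 318, 0, 214 and 155 in double-mutant replicates 3 to 6, so the groups overlapped through replicate 4. Its log2 fold change was 4.02 (SE 0.50, edgeR adjusted p = 1.22e-07). Jund, a subunit of the AP-1 factor, had 112 to 207 CPM at P40 and 1226 CPM in the control and 795, 121, 1708 and 1242 CPM in the double-mutant glands at P90 (2.29, adjusted p = 1.79e-05, edgeR). Of 15 immediate early genes, Jund alone passed, and their median was −0.23.

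Gpx2, a glutathione peroxidase of epithelia, had 0 to 66.1 CPM at P40 and 354, 0, 121, 374 and 120 CPM at P90 (log2 fold change 3.22, adjusted p = 1.20e-05, edgeR). The noncoding RNAs Snord13 (2.99), Rn7sk (3.03) and n-R5-8s1 (3.47), the predicted genes Gm13341 (2.92) and Gm13340 (3.29), the matrix protein gene Vwa1 (3.46) and Gm21718 (2.80) complete the 10 highest. Rn7sk ranged from 7.68 to 167 CPM at P40 and from 53.0 to 1820 CPM at P90. For 6 of these 10 the difference from the stage effect in the other cells of the same glands was tested, and no adjusted p lay below 0.521 (edgeR). In the other cells Cebpb had a log2 fold change of 3.76 and Jund of 2.28.

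In the other cells of the same glands, 378 of 4623 genes were called by stage. Of the 74 genes called in Dcpp-high cells, 72 were tested there and 69 went the same way. There Sdf2l1 had −1.60, Lpo −1.66 and Spcs2 −1.22 (edgeR adjusted p = 0.0103, 0.0307 and 0.0498), and Nucb2 −0.91 (adjusted p = 0.169). None of these genes was called different between the cell sets (lowest adjusted p = 0.4615, edgeR). In the test of the difference itself, the stage effect differed between Dcpp-high cells and the other cells in 2 of 3716 genes (0.0538%). Among 58 genes that changed with stage in Dcpp-high cells and could be tested, only Ccl9, a chemokine, had such a difference, with −2.64 in Dcpp-high cells and 0.68 in the other cells (difference −4.28, adjusted p = 0.00182, edgeR with the gland as a block). Ccl9 was named after its value was seen.

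Between genotypes, 34 genes changed in Dcpp-high cells (0.734% of those tested), 27 higher (0.583%) and 7 lower (0.151%) in double-mutant glands. The gene with the lowest p was Ifi27l2a, an interferon-inducible protein. It had 419, 76.7, 190, 92.1 and 81.8 CPM in the control glands. In double-mutant glands it had 1340, 944, 468, 1638 and 583 CPM at P40 and 1272, 566, 854 and 896 CPM at P90. The groups did not overlap, and the log2 fold change was 2.79 (SE 0.40, edgeR adjusted p = 1.66e-05). In the other cells of the same glands it had 107 to 431 CPM in controls and 447 to 1255 CPM in double mutants, also without overlap, and the log2 fold change was 0.90 (adjusted p = 0.269), and the difference between the cell sets was 1.87 (adjusted p = 0.000277). Non-epithelial cells had 100 to 449 CPM in control and 199 to 480 CPM in double-mutant glands.

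**Figure D5:**
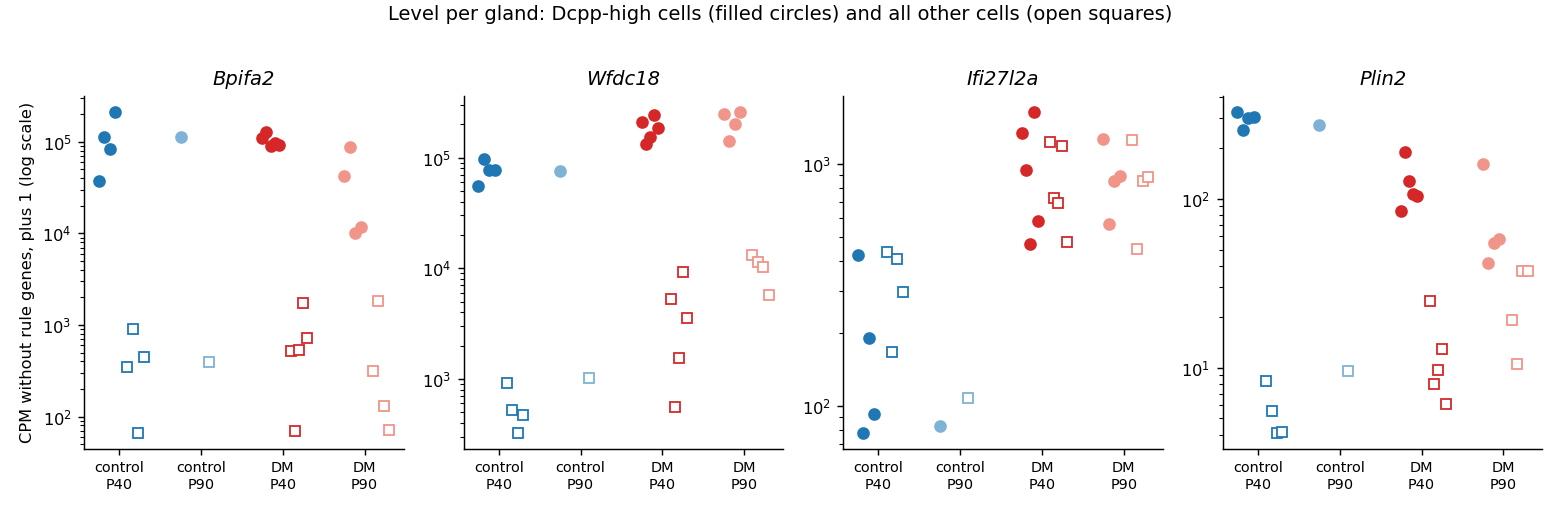
CPM + 1 (log axis) of Bpifa2, Wfdc18, Ifi27l2a and Plin2 by group in 14 glands; filled circles are the Dcpp-high cells and open squares all other cells of each gland. In Dcpp-high cells Ifi27l2a is higher and Plin2 lower in all 9 double-mutant glands than in all 5 control glands.

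Of the 9 interferon-induced genes in the list, 8 were tested and 3 rose in double-mutant glands, namely Ifitm3 (1.82, adjusted p = 0.000277), Rsad2 (3.32) and Isg15 (2.36), with a list median of 2.12 against −0.01 over all genes. Over all genes 0.583% rose. With batch as a factor, 1 of the 8 rose and the median was 1.78. The count was also 1 without control P90 replicate 3, double-mutant P40 replicate 3 or double-mutant P40 replicate 6, and 5 without control P40 replicate 2. Ifitm3, a membrane protein that restricts viruses, had 168, 98.0, 106, 74.2 and 54.5 CPM in control and 134 to 481 CPM in double-mutant glands, and so overlapped in 1 double-mutant gland, P90 replicate 6. Its effect was not called different from that in the other cells (difference 0.43, adjusted p = 0.716, edgeR).

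Plin2, which coats lipid droplets, fell. It had 324, 253, 302, 304 and 273 CPM in control glands. In double-mutant glands it had 83.7, 189, 126, 106 and 103 CPM at P40 and 159, 40.4, 53.4 and 56.5 CPM at P90. These did not overlap with controls, although 3 of the double-mutant values at P90 rest on 3, 1 and 1 UMIs. The log2 fold change was −1.24 (SE 0.29, edgeR adjusted p = 0.0130). In the other cells it was 0.68, and the difference between the cell sets was −1.86 (adjusted p = 0.00107). Plin2 lost its call in 5 of 26 alternative fits, among them that with batch as a factor (−0.85, adjusted p = 0.999, edgeR).

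Ltf, lactoferrin, had 0 CPM in 4 and 5.74 CPM in 1 control gland, and 544, 0, 0, 305, 5.71, 106, 566, 320 and 656 CPM in double-mutant glands, so that 3 double-mutant glands lay at the control level (6.17, adjusted p = 8.26e-05, edgeR). Of the 16 antimicrobial genes 10 were tested, and Ltf alone passed. The immunoglobulin genes Igha (3.79), Igkc (3.38) and Jchain (5.36) rose, and plasma cells are known to make them. In Dcpp-high cells Igha had 0 to 16.8 CPM in control and 23.6 to 649 CPM in double-mutant glands, while non-epithelial cells had 0 to 11431 and 20.7 to 14563 CPM. Fibroblast collagens rose as well, with Col3a1 (3.53), Col1a1 (4.94) and Col1a2 (3.49) of 4 tested fibroblast genes, and so did Wif1 (5.53), a secreted Wnt inhibitor of the tumor list, in which Clu (2.25) also passed. Gm21718 (4.38) completed the 10 highest.

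For these genes the numbers were small. Col3a1 had 2.56 to 16.8 CPM in control and 0 to 165 CPM in double-mutant glands, 3 of which had no UMI, with 42 of its UMIs in double-mutant P40 replicate 3, and without that gland its fold change was 2.30 (adjusted p = 0.451, edgeR). Wif1 had 0 UMIs in all 5 control glands, so its fitted fold is no bound. Without the cells that held 3 or more non-epithelial UMIs, Igha kept a log2 fold change of 4.38, Wif1 of 5.40 and Ifi27l2a of 2.87. In that fit 34 genes were called, 26 of them shared with the 34 above, and Col3a1 and Col1a1 had too few UMIs left to be tested. The 6 fibroblast markers summed to 6.53 to 80.4 CPM in Dcpp-high cells of control and 28.6 to 445 CPM in those of double-mutant glands, and the 15 immune markers to 92.1 to 794 and 38.6 to 2723 CPM. The part of RNA from other cells in these changes was not tested further.

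The 7 genes that fell in double-mutant glands were RP23-421B1.4 (−3.78), Prol1 (−1.96), Mup5 (−1.88), Mgst1 (−1.42), Plin2, Mucl1 (−2.05) and Fam25c (−5.29). Prol1, a proline-rich acinar protein, had 5171 to 17102 CPM in control and 694 to 7533 CPM in double-mutant glands, and so overlapped. In the other cells its fold change was −1.54. Mgst1, a microsomal glutathione transferase, did not differ from the other cells beyond the test (difference −0.84, adjusted p = 0.116, edgeR). Bpifa2 (−0.73) and Pglyrp1 (0.20) did not pass.

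In the test of the difference between cell sets, 31 of 3716 genes (0.834%) had a genotype effect in Dcpp-high cells that differed from that in the other cells. Among the 34 genes that changed in Dcpp-high cells, the difference could be tested for 28 and was called for 4, Ifi27l2a, Plin2, Col3a1 (difference 2.62, adjusted p = 0.0125) and Col1a2 (3.01, adjusted p = 0.0267). Of these, Plin2 fell and the other 3 rose in Dcpp-high cells of double mutants. Col1a2 was named after its value was seen.

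Between the sexes as labelled, 29 genes changed (0.626% of those tested), 24 higher (0.518%) and 5 lower (0.108%) in male glands. Kallikreins of the granular convoluted ducts made up 13 of the 24 that rose. They were 13 of 14 tested genes of the Klk1 and Klk1b family, of which 0 fell. Ren1 (7.36) and Egf, which granular duct cells are known to secrete, rose as well. Klk1b16, which had the lowest p (log2 fold change 7.83, edgeR adjusted p = 5.80e-13), had 648, 394 and 4101 CPM in the control and 2254 and 0 CPM in the double-mutant glands labelled male, and 0 to 11.4 CPM in those labelled female. Double-mutant P90 replicate 6 thus had none despite its male label. Non-epithelial cells of the 4 glands with Klk1b16 had 219 to 6827 CPM, so it was met there as well, and the Klk1 duct list summed to 861 to 41271 CPM in Dcpp-high cells of male and 40.4 to 5894 CPM in those of female glands. The part of RNA from duct cells was not tested. The next genes were Klk1b8 (6.72), Klk1b26 (6.11), Klk1b22 (5.72), Klk1b9 (5.54), Klk1b21 (5.52), Klk1b3 (5.48), Klk1b4 (5.31) and Klk1b11 (5.11). Kallikrein copies are near-identical, so single members are uncertain.

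The 5 genes lower in males were Xist (−6.31), which silences an X chromosome in females, RP23-421B1.4 (−6.38), Mup5 (−2.94), Dmbt1 (−3.58), a scavenger receptor of saliva, and Gm21718 (−2.36). The effect of sex differed between Dcpp-high cells and the other cells of the same glands in 1 of 3716 genes (0.0269%), which was not among the 22 tested genes that changed with sex in Dcpp-high cells. Bpifa2 (−0.10) and Pglyrp1 (0.34) did not pass by sex.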

How the data were processed

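Submandibular glands of 26 mice were measured by Drop-seq. The authors deposited raw UMI counts per gene and barcode for each gland, made with Drop-seq tools using the GENCODE vM7 reference (mm10) extended by Cre and EYFP, with barcodes chosen at the knee of the UMI curve. The authors also deposited counts for CITE-seq and bulk libraries.

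Cells were chosen by the rule in the text, and the members and gene lists were chosen with earlier results of these data known. Doublets were not removed by a caller. Groups came from the labels. Shares were compared over glands by two-sided exact permutation tests (scipy 1.17.1). UMIs of Dcpp-high cells were summed per gland (14 glands with at least 10 such cells, rule genes left out), filtered with filterByExpr, and tested with edgeR 4.0.16 (quasi-likelihood, stage, genotype and labelled sex as terms, Benjamini-Hochberg adjusted p under 0.05) in R 4.3.3. Differences of an effect between cell sets came from 1 fit with the gland as a block. The scripts were tested on simulated data.

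Genes named were Dcpp1, Dcpp2, Dcpp3, Pglyrp1 and Bpifa2, the 10 lowest p in each direction of a comparison, the 25 largest ratios to the other cells (10 to acinar and to Muc19-high cells) and up to 4 members of a list. Ratios had 1 UMI added to each sum, which inflates genes near 0. Non-epithelial cells had at least 5 UMIs of immune, endothelial or fibroblast markers and none of Epcam, Krt8 or Krt18, acinar cells at least 10% Prol1, and Muc19-high cells at least 2% Muc19. Gene positions came from GENCODE vM21 on GRCm38, and promoters from RefSeq on GRCm38.p6. Alternatives were DESeq2 1.42.0, a binomial mixed model (lme4 1.1.37), other thresholds and filters, thinning, and leaving out each gland. The 40% threshold, batch as a factor, leaving out doublets from the gene fits, the fit across cell sets and the scaled offset were added after seeing the data. Same-numbered glands did not deviate together (10 pairs, correlations −0.0398 to 0.205, 1 over 0.1), so numbers do not pair glands.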

Additional observations from a re-analysis of the deposited data

Results flagged for a closer look

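Of 35 groups of 4 to 10 glands examined, 7 held a gland that stood apart from the rest by Dixon's criterion, which chance alone gives in about 1 in 20 groups. The share of Dcpp-high cells was 9.66% in control P90 replicate 3, where the other control glands at P90 were below 1%, and 10.8% in double-mutant P90 replicate 6. The share of Muc19-high cells stood apart in the same libraries, at 0.623% in control P90 replicate 3 and 11.4% in double-mutant P90 replicate 6, and at 10.2% in double-mutant P40 replicate 7. Within Dcpp-high cells, Plin2 was at 159 CPM in double-mutant P90 replicate 3, above the other 3 glands of its group. Dcpp1 made up 28.3% of Dcpp1 and Dcpp3 UMIs in control P40 replicate 4, against about even shares in the other control glands at P40.

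For 3 of the named genes the effect of genotype in Dcpp-high cells differed from that in the other cells of the same glands in edgeR's test of the difference, by 1.87 on the log2 scale for Ifi27l2a, 2.62 for Col3a1 and −1.86 for Plin2. Of the Col3a1 UMIs, 42 came from double-mutant P40 replicate 3, and without that gland its genotype effect within Dcpp-high cells was not called (2.30, adjusted p = 0.451, edgeR). The effect on Plin2 within these cells was not called with batch as a factor (−0.85, adjusted p = 0.999, edgeR).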

How the results depend on the processing

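No comparison of shares passed the test under any alternative run, among them other Dcpp thresholds, 300 genes per cell, thinning to 200 UMIs (36 double-mutant cells at P40 and 218 at P90 left out) and the binomial mixed model. Leaving out each gland gave −15.3 to −9.54 points by stage in controls, −5.66 to −3.37 in double mutants, −9.86 to −4.14 by genotype at P40, −4.75 to −2.29 by sex in double mutants, and 5.21 to 10.9 for the difference of the stage effects. By genotype at P90 the range was −0.254 to 2.65, turning without double-mutant P90 replicate 6, and for the share of Dcpp-high cells, male against female, control glands, −2.72 to 4.39, turning without control P40 replicate 1 (−0.196) or 3 (−2.72) or control P90 replicate 1 (−0.177), 2 (−0.155) or 6 (−0.171).

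The 74 genes called by stage became 175 with DESeq2, 48 with glands of 20 or more cells, 42 with the log2 number of cells as a covariate, 5 with thinned sums, 41 without both libraries whose sex genes go against their labels and 114 with batch as a factor. Of the 74, 53 were also called with DESeq2, 31 with the covariate and 29 with batch as a factor. The 34 by genotype became 1 with thinned sums, 62 at the 40% threshold and 18 with batch as a factor, and the 29 by sex became 16 with DESeq2 and 13 with thinned sums. Of the 34, 27 were also called at the 40% threshold and 11 with batch as a factor. Leaving out each gland gave 35 to 84 by stage, 15 to 47 by genotype and 12 to 30 by sex. The lowest count of each came without control P90 replicate 3, the only control gland at P90, where 2321 genes were tested, and by stage 48, 40 and 41 were called without double-mutant P90 replicate 3, 4 or 5, of which 45, 37 and 36 were among the 74. The fit without replicate 3 is the same as that with 20 or more cells. The fit without replicate 5 is the same as that without both libraries, since the other library held 0 Dcpp-high cells.

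With the replicate number as a block, 60 genes were called by genotype, 97 by stage and 29 by sex, and adjusted p for shares was 0.167, 0.167, 0.167 and 0.625 (exact permutation). The numbers do not pair the glands.

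Of 1462 alternative values of 58 named results, 1340 kept their direction and side of the threshold, 111 lost the call, 3 gained it and 8 turned. For Bpifa2 by genotype the value was 0.21 with batch as a factor. By sex Bpifa2 had 0.65 with batch as a factor, 0.12 and 0.16 without control P40 replicate 2 or 6, and 0.12 and 0.17 without double-mutant P90 replicate 4 or 6. Bpifa2 gained the call with no filter on low counts by stage (−1.69, edgeR adjusted p = 4.87e-10) and genotype (−0.85, adjusted p = 0.0350), and by stage with batch (−3.46, adjusted p = 0.000216). Leaving out each gland gave −0.90 to 0.17 for Bpifa2 and −0.013 (without control P90 replicate 3) to 0.56 for Pglyrp1 by sex, and Pglyrp1 by stage had 0.080 in thinned sums. The cause was not tested beyond the fewer genes or UMIs named.

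Scaling the ratio's offset to depth lowered the median of all genes from 0.93 to 0.76, moved Gm15821 from the 25 highest to rank 969, and took the antimicrobial genes that were higher from 4 to 2 of 7. Depth limits genes at P90, where 18 to 119 cells per gland were summed.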

Other observations

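The 12 glands that were nearly free of Dcpp-high cells still held 11 of them. Of these, 5 resembled the main group, with 69.2 to 80.4% of their UMIs from Dcpp genes and 45 to 422 Bpifa2 UMIs each. They came from control P90 replicates 1 and 6 and, 3 of them, from double-mutant P90 replicate 7. The other 6 had 10.2 to 35.9% and 0 Bpifa2 UMIs, and came from control P90 replicates 2, 4 and 5.

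In the 4 CITE-seq glands, 1 of 2535 cells was Dcpp-high. It lay in control replicate 1, where it made up 0.149% of the cells (exact 95% interval 0.00377 to 0.826%). Of its 7912 UMIs, 60.3% were from Dcpp genes, and it had 692 UMIs of Bpifa2, 96 of Wfdc18, 6 of Pglyrp1 and 0 of Mup4. Its antibody counts were 103 for EpCAM, 100 for CD24 and 168 for CD29, against medians of 29, 21 and 61 in the other cells of the gland. The other 3 glands, control replicate 2 and both double-mutant glands, had none, which allows shares of up to 0.412 to 0.604%. No CITE-seq cell was Muc19-high.

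In bulk RNA, with 1 library per genotype and so no test, Dcpp genes had 354 of 34515744 counts in the control (14.4 TPM) and 264 of 34729551 in the double-mutant gland (11.01 TPM). Wfdc18 had 46.3 and 428 TPM, Bpifa2 5.34 and 9.67 TPM, and Pglyrp1 1.53 and 12.2 TPM. In bulk, fewer cells of a type and less RNA per cell cannot be told apart.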
